A study of Pistia stratiotes with 8 samples.

Results

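Among 16504 transcript models of the floating arum Pistia stratiotes (water lettuce), 54 were expressed in every leaf library and listed at 0 in every root library. The members were chosen by their measured level: a CPM of at least 1 (normalized counts rescaled so that each library sums to 1000000) in all 4 leaf libraries and exactly 0 in all 4 root libraries. Their contrast between leaf and root is therefore a description and is not tested. Leaf libraries came from the largest leaf and root libraries from roots stripped of tips and branches, in both cases from young plants with 3 to 4 leaves, pooled per flask. Flasks of 500 ml with 200 ml of SH medium had been started with 1 mature plant and kept for 10 days, and a pooled flask was a biological replicate, with 4 per tissue. No strain, line or plant age beyond this is given in the labels.

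Water lettuce floats with its leaves in the air and its roots hanging free below the surface. A leaf of such a plant makes sugars by photosynthesis and opens its stomata to the air, whereas the root takes up nutrients from the water. Transcripts present in one organ and missing from the other are often read as part of what sets the organs apart. In pooled tissue, a transcript carried by few cells and one carried at a low level by many cells cannot be told apart.

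The models bear numbers (Pis00389.t1, for instance) and no gene names. No function is given for any of them, the tissue labels could not be checked against known leaf or root genes, and no sequence is printed. A model's share of the reads also grows with its length, which is not given, so the levels below are shares of reads and not numbers of transcripts.

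The 8 columns are normalized counts that summed to 7299221 to 8749656 in leaf and to 5458151 to 5809933 in root. The smallest step in a library, taken as the worth of 1 read, was 0.161 to 0.172 CPM, so 1 CPM stood for about 5.81 to 6.21 reads. Because read counts are not given, the limit that a listed 0 allows is not stated. Leaf columns are numbered 1 to 4 while the leaf labels run 1, 3, 4 and 5, so the library numbers below are those of the columns.

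The group was small and, for the most part, weakly expressed. Its summed level was 1638 CPM in leaf library 1, 1348 in library 2, 1350 in library 3 and 1288 in library 4, which is 0.141% ± 0.0157 of a leaf library (SD, n = 4). Library 1 was the highest and the other libraries lay close together. Much of this came from Pis15720.t1, at 421 CPM in library 1 and 209 to 252 CPM in the others. Library 1 was the highest for 16 members and the lowest for 14. The median member had a mean level of 8.54 CPM in leaf, against 19.1 CPM for the 13688 models that passed the filter on low values (10 or more normalized counts in 4 or more libraries). Of the 54 members, 50 passed that filter. Models that pass it need not reach 1 CPM in leaf, and the demand for 0 in every root library is met more easily by weakly expressed models. How far the rule itself sets the lower median was not tested. The most abundant member ranked 482 of 16504 models by mean leaf level, and the median member ranked 9258.

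The levels were divided into tiers at set steps, which need not be gaps between the levels. With steps at 100, 10 and 3 CPM of mean leaf level, 5 members lay at 100 CPM or above, 18 between 10 and 100, 22 between 3 and 10, and 9 below 3. The 5 in the top tier made up 61.8% of the summed level, the next tier 27.6%, the third 9.18% and the lowest 1.38%. Among all models that passed the filter, 12.6%, 52.1%, 18.9% and 9.45% lay in the same tiers, compared with 9.26%, 33.3%, 40.7% and 16.7% of the members. The remaining models that passed the filter lay below 1 CPM in leaf, where no member can lie. The mirror group, 194 models at 1 CPM or more in every root library and at 0 in every leaf library, had 6.70%, 29.9%, 39.2% and 24.2% in these tiers of root level. None of these shares was tested against another.

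**Figure D1:**
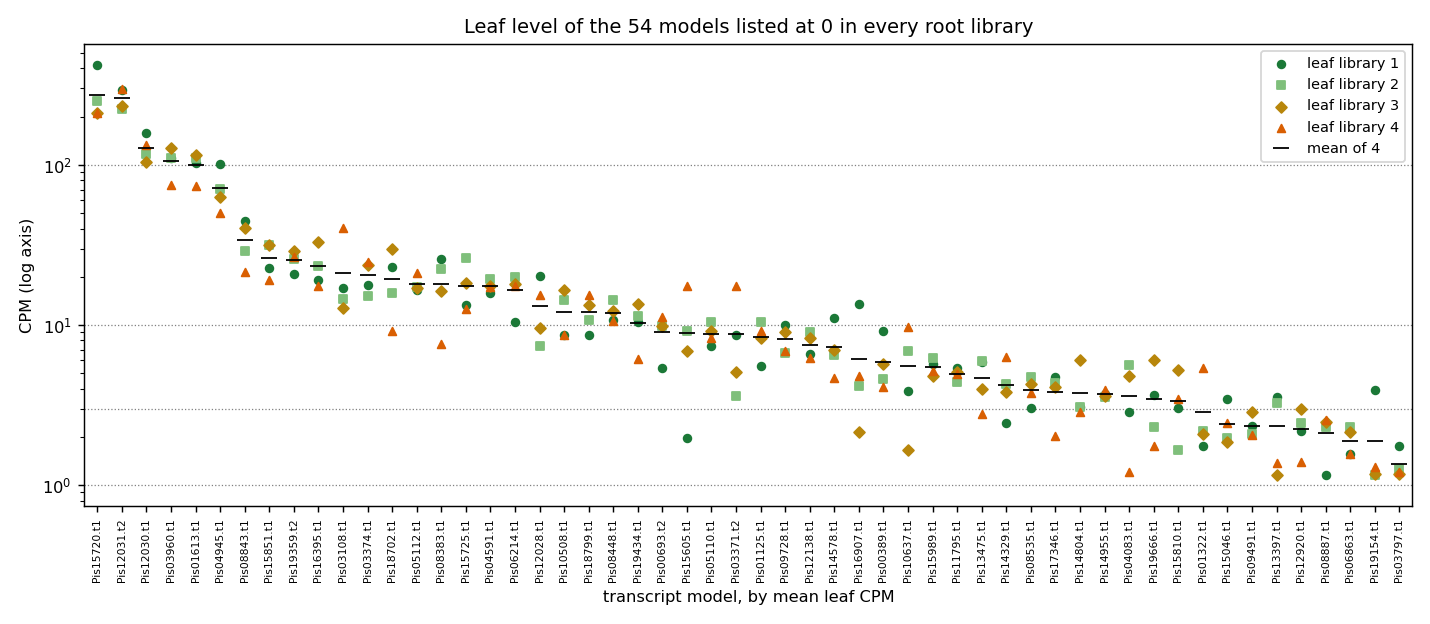
Level of each of the 54 models in the 4 leaf libraries (points) with its mean (black bar), in CPM on a log axis, ordered by mean; dotted lines mark 1, 3, 10 and 100 CPM. The first 6 models stand at 49.8 CPM or more in every library and hold 66.9% of the summed level.

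Pis15720.t1 and Pis12031.t2 carried 38.1% of the group's level. Pis15720.t1 stood at 421, 252, 211 and 209 CPM in leaf libraries 1 to 4, a mean of 273 ± 100 (SD, n = 4). Pis12031.t2 stood at 291, 224, 235 and 299 CPM, a mean of 262 ± 38.1. The former was highest in library 1 alone, whereas the latter was high in libraries 1 and 4, so their order changed from library to library and their means do not differ beyond the spread.

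The other members of the top tier lay close to 100 CPM. Pis12030.t1 was at 158, 117, 104 and 134 CPM (mean 128 ± 23.1). Pis03960.t1 was at 110, 111, 127 and 75.1 CPM (mean 106 ± 21.8), and Pis01613.t1 at 102, 110, 115 and 73.7 CPM (mean 100.3 ± 18.5), barely inside the top tier. The last 2 had the same order of libraries, highest in library 3 and lowest in library 4, and their ranges overlapped with each other and, in part, with that of Pis12030.t1.

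As a ratio, the step from the sixth to the seventh member was about as wide as that from the second to the third. Pis04945.t1 was at 102, 70.7, 62.6 and 49.8 CPM (mean 71.2 ± 22.0) and Pis08843.t1 at 44.9, 28.8, 40.5 and 21.4 CPM (mean 33.9 ± 10.7). Both were highest in library 1 and lowest in library 4. Their 4 values did not overlap. The remaining 3 of the 10 most abundant members were Pis15851.t1 with a mean of 26.1 ± 6.36 CPM, Pis19359.t2 with 25.6 ± 3.53 and Pis16395.t1 with 23.3 ± 6.97, which do not differ beyond their spread. The other 44 members had means from 1.35 CPM (Pis03797.t1) to 21.1 CPM (Pis03108.t1).

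Each model number occurs once in the table, for the members as for all 16504 models, so the level of another transcript of the same gene could not be compared. The suffix of the name was t1 for 50 members and t2 for 4 (Pis12031.t2, Pis19359.t2, Pis00693.t2 and Pis03371.t2). That is 92.6% with t1, against 89.7% over the whole table.

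Models close to the limits of the rule were found on both sides. Of 12071 models with at least 1 CPM in every leaf library, 54 (0.447%) were at 0 in all root libraries, 30 were above 0 in 1 root library, 35 in 2, 60 in 3 and 11892 in 4. In 13 of these models the root values added up to about 1 read (under 1.5 times its worth), and their leaf means ran from 1.43 to 25.5 CPM. Just outside on the root side were Pis14976.t1 and Pis12543.t1, with 0.157 and 0.166 CPM in root library 1, and Pis11395.t1 with 0.163 CPM in root library 2, each at 0 in the other root libraries. Of the 30 models above 0 in a single root library, 14 had their root reads in library 4, 8 in library 2, 5 in library 1 and 3 in library 3. For the 13 models with about 1 root read, a single read decided against membership.

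The leaf side of the rule passed over models at lower levels. Of 291 models at 0 in every root library, 79 were at 0 in leaf as well, 100 had some leaf signal but never 1 CPM, and 29, 19 and 10 reached 1 CPM in 1, 2 and 3 leaf libraries. Just inside were Pis13397.t1, Pis08887.t1 and Pis19154.t1, whose lowest leaf library had 1.15 CPM each. Just outside were Pis01143.t1 with 0.985 CPM, Pis19354.t1 with 0.982 and Pis15509.t1 with 0.865 in their lowest leaf library. A value of this size stands for about 5 to 7 reads, and 7 members had fewer than 10 estimated reads in their lowest leaf library.

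**Figure D2:**
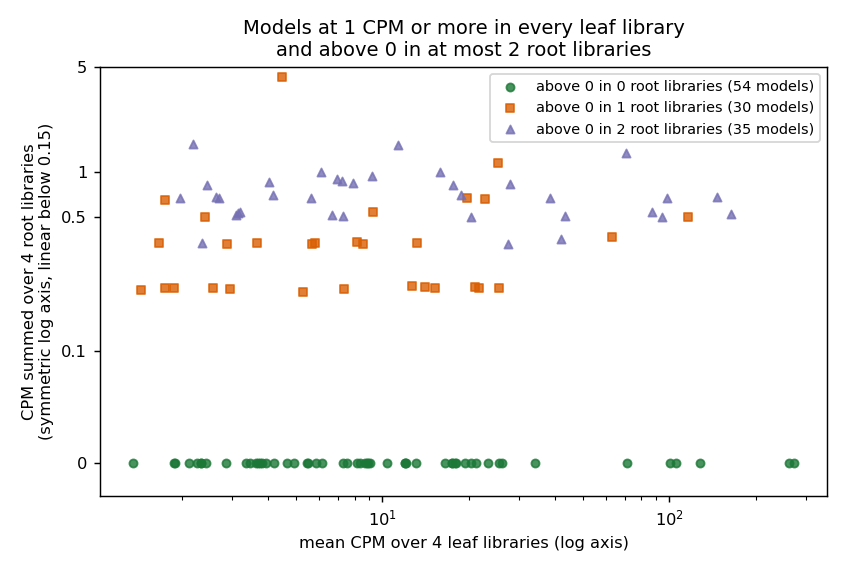
Models with at least 1 CPM in every leaf library that were above 0 in 0, 1 or 2 root libraries, by mean leaf CPM (log axis) and CPM summed over the root libraries (symmetric log axis). The 54 members lie at 0, and the lowest row of squares, at about 0.17 CPM, holds the 13 models with about 1 read in root.

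Members differed in how steady they were across leaves. The ratio of the highest to the lowest leaf library had a median of 2.03, and it exceeded 2 in 28 members and 3 in 13. Pis15605.t1 had the widest range, with 1.96, 9.13, 6.91 and 17.6 CPM in libraries 1 to 4, a ratio of 9.0. Pis16907.t1 ran the other way, with 13.5, 4.18, 2.13 and 4.81 CPM (ratio 6.32), and was highest in library 1.

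Pis10637.t1 followed with 3.84, 6.89, 1.66 and 9.64 CPM (ratio 5.81), high in libraries 2 and 4. At the steady end, Pis14955.t1 was at 3.72, 3.56, 3.60 and 3.89 CPM, a ratio of 1.09. Pis04591.t1 (15.9, 19.2, 17.5 and 17.3 CPM) and Pis11795.t1 (5.34, 4.4, 5.08 and 4.93 CPM) had ratios of 1.21 and 1.22. The steadiest member, Pis14955.t1, lies in the third tier.

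The median SD of a member's log2(CPM + 1) over the 4 leaf libraries was 0.399, against 0.309 for the 13638 other models that passed the filter. By tier, the members' median was 0.288 at 100 CPM and above, 0.407 from 10 to 100, 0.422 from 3 to 10 and 0.312 below 3. For the other models in those tiers it was 0.325, 0.282, 0.355 and 0.407. The members had the larger value in both middle tiers and the smaller one at the top and bottom. In the bottom tier the demand for 1 CPM in every library removes models with a low library, which the other models can have. Without leaf library 1 the medians were 0.289 for the members and 0.246 for the others, and without leaf library 4 they were 0.320 and 0.285.

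How the leaf libraries ranked among the members was set beside their rank among the other models, without a test. Leaf library 4 was the lowest for 23 of 54 members (42.6%), library 1 for 14, library 2 for 9 and library 3 for 8. Among the 13638 other tested models, library 1 was the lowest most often, in 41.3%, and library 4 in 22.9%. On the normalized counts as deposited, library 4 was the lowest for 28 members (51.9%). There it was also the most frequent lowest library of the other models, at 30.8%, just ahead of library 1 at 30.2%. The highest library was library 1 for 16 members (29.6%), libraries 2 and 4 for 13 each (24.1%) and library 3 for 12 (22.2%). Among the other models, libraries 1 to 4 were the highest in 23.9%, 23.8%, 17.9% and 34.4%. On the normalized counts as deposited, 20, 10, 15 and 9 of the 54 members were highest in libraries 1 to 4. The shares among the other models were then 36.9%, 16.7%, 21.0% and 25.4%.

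Taken in pairs, leaf libraries 2 and 3 were the upper ones in 17 members (31.5%, against 12.4% of the other models). Pis15851.t1 (22.5, 31.5, 31.4 and 19.0 CPM) and Pis16395.t1 (19.1, 23.5, 33.1 and 17.6 CPM) show this shape. Libraries 2 and 4, the most frequent pair among the other models at 30.9%, were the upper ones in 6 members (11.1%). The scale moves these shares: on the normalized counts as deposited, libraries 2 and 3 led in 13 members (24.1%, against 10.6%) and libraries 1 and 3 in 17 (31.5%, against 22.2%).

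Between leaf libraries 1 and 4, 33 members were higher in library 1 and 21 in library 4, with a median difference (library 1 minus library 4) of 0.11 on the log2(CPM + 1) scale. In the other models the median was -0.15, with 39.3% higher in library 1. A first component of the centred leaf values held 50.6% of the members' variance and set library 4 (loading 0.82) against library 1 (-0.51) and library 3 (-0.24). In the other models it held 59.7% and set library 4 (0.67) against library 1 (-0.74), with library 3 near 0 (-0.03). With 4 libraries these are descriptions, and no correlation across them was computed.

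**Figure D3:**
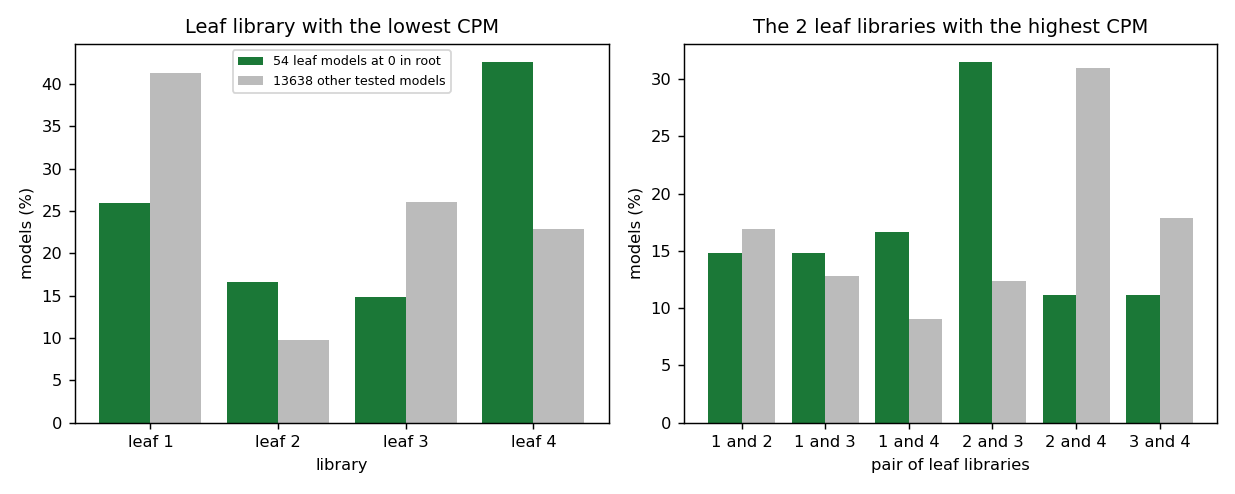
Share of models (%) for which each leaf library had the lowest CPM (left) and for which each pair of leaf libraries had the highest CPM (right), for the 54 members (green) and the 13638 other tested models (grey). Library 4 is the lowest for 42.6% of the members and 22.9% of the others, and the pair of libraries 2 and 3 leads for 31.5% and 12.4%.

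Several members carried nearly adjacent numbers. Of the 54, 9 had a number within 5 of another member's and formed 4 runs. No count for other sets of models was made beside it. Of the numbers up to 20355, 3851 are not listed, and so are 23 of the 108 places directly below or above a member. Whether model numbers follow the order of genes along the genome is not given in the sources used here, and the chromosome positions were not used. If models in a run are near-identical copies, reads may have been divided among them with error, which could not be checked without their sequences. The runs and the models beside them were picked out after their values were seen.

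The run with the most members held 2 of the 3 most abundant members. Its members were Pis12028.t1 at 20.2, 7.38, 9.51 and 15.4 CPM (mean 13.1 ± 5.82, n = 4), Pis12030.t1 and Pis12031.t2. The model between them, Pis12029.t1, was at 135, 96.4, 99.7 and 134 CPM in leaf and at 0, 0, 0 and 0.50 CPM in root libraries 1 to 4, so that about 3 reads in root library 4 kept it out of the group. In all 4 models, leaf libraries 1 and 4 were the upper ones, a pair that led in 9 of the 54 members (16.7%) and in 9.04% of the other tested models.

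On the log2(normalized count + 1) scale Pis12029.t1 was 9.33 higher in leaf than in root (SE 0.437, n = 4 per tissue), from means of 918 ± 207 and 0.726 ± 1.45 normalized counts. The root mean lies below the added 1, so the size of this difference depends on that 1. Pis12029.t1 passed the filter through its leaf values alone and was picked out after they were seen, so no test of it is given. The model before the run was expressed in both organs: Pis12027.t1 was at 22.6, 43.2, 45.1 and 55.2 CPM in leaf and at 25.1, 33.8, 27.4 and 30.7 CPM in root. Its leaf and root libraries overlapped in CPM, and on the log2(normalized count + 1) scale it was 0.92 higher in leaf (SE 0.222). Pis12027.t1 was also picked out after its values were seen, so no test of it is given.

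A second run held the most abundant member. Pis15720.t1 was followed by Pis15721.t1, at 1.54, 0.412, 0.796 and 1.47 CPM in leaf, Pis15722.t1, at 0.315, 0.729, 0.492 and 0.876 CPM, and the member Pis15725.t1, at 13.3, 26.0, 18.3 and 12.5 CPM. All 4 were at 0 in every root library, and the numbers between Pis15722.t1 and Pis15725.t1 are not listed. The middle models were far weaker, too low for the test, and the members at the ends did not share an order of libraries, since Pis15720.t1 peaked in library 1 and Pis15725.t1 in library 2. Outside the run, Pis15719.t1 was at 0 to 0.331 CPM in leaf and 0.172 to 2.29 CPM in root, and Pis15726.t2 at 15.0 to 25.5 CPM in leaf and 12.5 to 16.7 CPM in root.

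In the third run, Pis05110.t1 (7.36, 10.4, 9.20 and 8.26 CPM) and Pis05112.t1 (16.6, 17.4, 17.1 and 21.2 CPM) stood on both sides of Pis05111.t1, which had 1.90, 0.922, 1.17 and 0.520 CPM in leaf. All 3 were at 0 in every root library. The models on either side, Pis05109.t1 and Pis05113.t1, were above 8 CPM in every leaf and root library.

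The fourth run was interrupted. Between the members Pis03371.t2 (8.62, 3.59, 5.11 and 17.6 CPM) and Pis03374.t1 (17.9, 15.1, 23.8 and 24.7 CPM) lay Pis03372.t1, with 14.4 to 21.3 CPM in leaf and 23.6 to 38.3 CPM in root, and Pis03373.t1. The latter had 15.3, 10.4, 10.8 and 11.5 CPM in leaf and 0, 0.167, 0.171 and 0.166 CPM in root, about 1 read in each of 3 root libraries. It was 5.83 higher in leaf on the log2(normalized count + 1) scale (SE 0.341), a size that depends on the added 1, since its root mean was 0.714. It too passed the filter through leaf alone and was picked out after its values were seen, so no test of it is given. Pis03376.t1, beyond the run, also had a faint root level, with 30.0 to 47.1 CPM in leaf and at most 0.337 CPM in root.

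**Figure D4:**
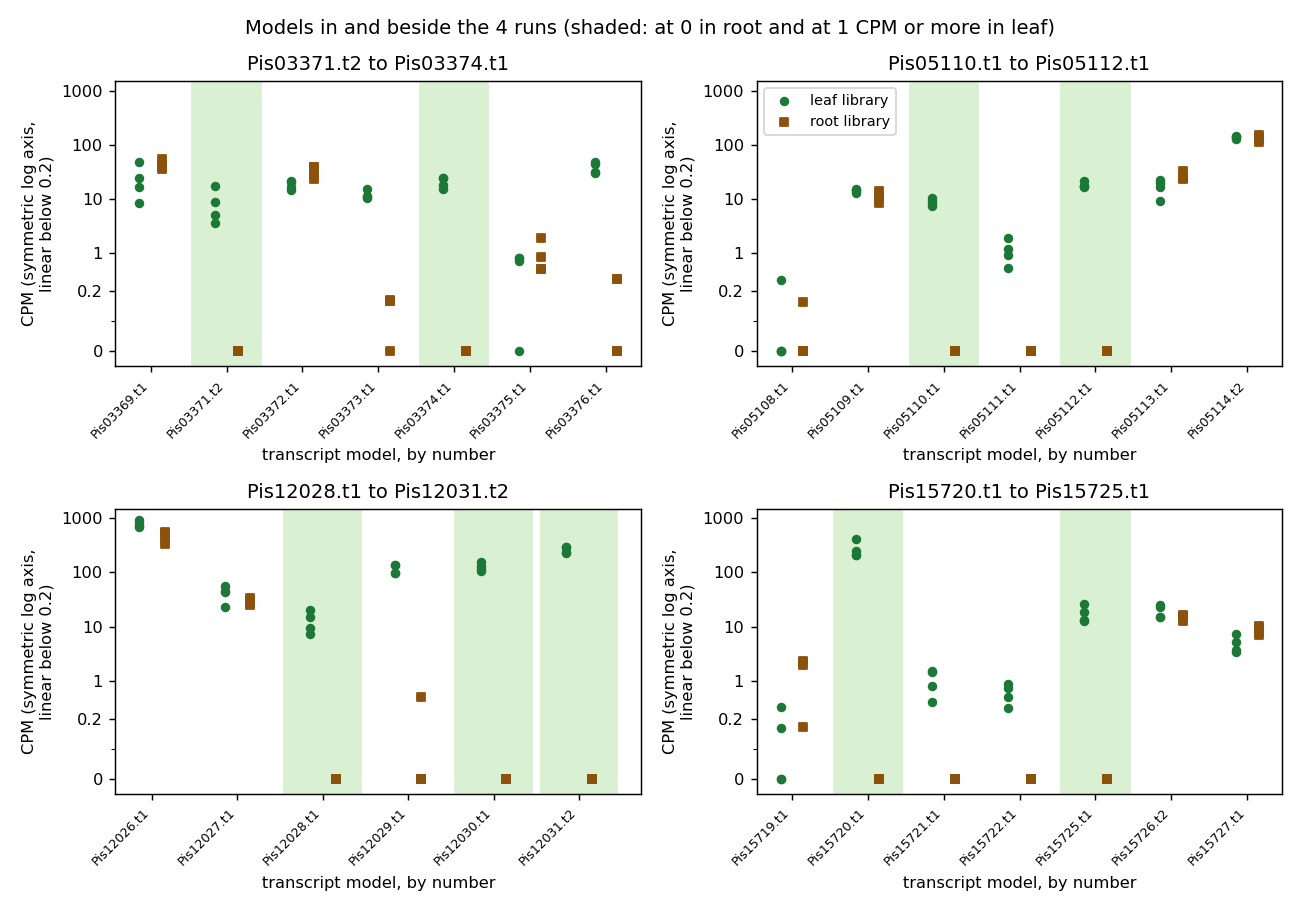
CPM of each leaf library (green circles) and root library (brown squares) for the models in and beside the 4 runs, on a symmetric log axis; shading marks members. In the run from Pis12028.t1 to Pis12031.t2 the root squares lie at 0 for Pis12028.t1, Pis12030.t1 and Pis12031.t2 and at 0 or 0.50 CPM for Pis12029.t1, while Pis12027.t1 is expressed in both organs.

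To see whether models next to a member by number also favoured leaf, the non-members numbered 1 below or 1 above a member were examined. They are models that the rule passed over on their own values, so those with the pattern of a member are missing from them by construction. There were 81 such models, 64 of which passed the filter. Leaf was compared with root by limma on the log2(normalized count + 1) values of all tested models. Of the 64, 25 (39.1%) were called with the higher level in leaf, against 24.4% of all tested models, and 10 (15.6%) with the higher level in root, against 27.2% (adjusted p under 0.05). Their median difference, leaf minus root, was 0.22, compared with -0.05 over all tested models. No test of these shares was made. Some calls in both directions were of models that passed the filter through 1 tissue alone, which nearly fixes their direction. Pis03373.t1 had a root mean of 0.714 normalized counts, and Pis14956.t1 a leaf mean of 0.370. Such calls were not counted apart. Without the filter, 30 of the 81 (37.0%) were called higher in leaf, against 21.4% of all models. For calls higher in root the values were 12 (14.8%) and 25.8%.

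The balance depends on the scale. On each scale tried, the neighbours had a larger share of leaf calls and a smaller share of root calls than the whole table. These shares too include models that passed the filter through 1 tissue alone. With column totals, which moved the median of all tested models to -0.53, 16 neighbours (25%) had calls in favour of leaf and 25 (39.1%) in favour of root, against 13.4% and 48.5% of all tested models. With quantile normalization the neighbours gave 28 and 11 calls (43.8% and 17.2%), against 28.9% and 25.9%. Without the neighbours of the 9 members in runs, 20 of 57 (35.1%) favoured leaf and 10 (17.5%) favoured root. At 2, 3, 4 and 5 numbers away the share higher in leaf was 28.6%, 34.9%, 23.0% and 26.0%, and the share higher in root 25.7%, 23.8%, 20.3% and 26.0%.

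**Figure D5:**
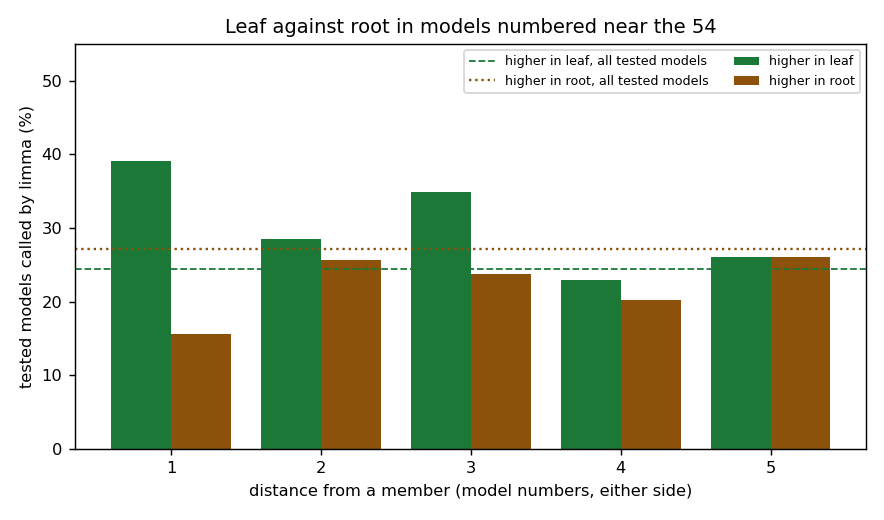
Share (%) of tested non-members called in favour of leaf (green) or root (brown) by limma at 1 to 5 model numbers from a member; lines mark the shares over all 13688 tested models, 24.4% and 27.2%. At a distance of 1 the bars are at 39.1% and 15.6%, and at 5 both are at 26.0%.

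Among the 64 tested neighbours, 16 were called with a difference over 1 on the log2 scale in favour of leaf and 6 in favour of root. Over all 13688 tested models these counts were 1961 and 2511. Both sets of counts include models that passed the filter through 1 tissue alone. Of the 10 called neighbours with the largest differences, 7 favoured leaf and 3 favoured root, with Pis12029.t1 and Pis03373.t1 among the former. Of these 10, only Pis14328.t1 passed the filter in both tissues. For the others the filter nearly fixed the direction, so no lean is read from the split. All 10 are named for the size of their differences, so an adjusted p given for any of them is no further evidence. None is given where the other tissue would not have passed the filter by itself. Pis03796.t1, beside the weakest member Pis03797.t1, was at 168, 164, 273 and 115 CPM in leaf and at 2.48, 1.65, 2.27 and 3.38 CPM in root. It was 6.56 higher in leaf on the log2 scale (SE 0.300). Pis14328.t1, beside Pis14329.t1, was at 108, 154, 215 and 154 CPM in leaf and at 9.47, 6.61, 14.1 and 10.5 CPM in root, a difference of 4.42 (SE 0.249; limma adjusted p = 2.33e-07). In both cases the non-member took a larger share of the leaf reads than the member beside it. That leaf and root did not overlap follows from naming them for large differences.

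The other leaf-biased neighbours among these 10 were weaker in leaf. Pis04084.t1, beside Pis04083.t1, was at 7.66 to 11 CPM in leaf and 0.165 to 1.01 CPM in root. Pis10636.t1, beside Pis10637.t1, was at 6.17 to 10.3 and 0.167 to 0.670 CPM, and Pis09492.t1, beside Pis09491.t1, at 4.18 to 10.4 and 0 to 0.563 CPM. Their differences were 4.62, 4.30 and 4.82 on the log2 scale. All of them passed the filter through leaf alone and were named for these differences. That leaf and root did not overlap in any of them follows from that choice.

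Some members stood next to models with the opposite pattern. Pis14956.t1, beside the steady member Pis14955.t1, was at 97.2, 99.95, 122 and 74.6 CPM in root and at 0.169, 0, 0 and 0 CPM in leaf. Its leaf minus root difference was -8.76 on the log2 scale (SE 0.341), a size that depends on the added 1, since its leaf mean was 0.370 normalized counts. Pis08844.t1, beside Pis08843.t1, was at 42.2, 29.4, 43.1 and 37.5 CPM in root and at 0.163 to 0.678 CPM in leaf (difference -5.73, SE 0.341).

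Pis08842.t1, on the other side of Pis08843.t1, was also higher in root, at 6.13 to 8.11 CPM against 1.5 to 2.30 CPM in leaf (difference -1.42, SE 0.247). It was picked out after its values were seen, so no test of it is given. Pis08843.t1, at 21.4 to 44.9 CPM in leaf and 0 in root, thus lay between models of the opposite bias. Pis08536.t2, beside Pis08535.t1, was at 4.98 to 13.4 CPM in root and 0.163 to 0.170 CPM in leaf (difference -4.45, SE 0.363).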

How the data were processed

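Leaf and root poly(A) RNA was sequenced as 150 bp read pairs. Salmon and DESeq2 appear in the submitters' processing notes, with no role or version; which transcript set and genome build they used is not given in the sources used here. The authors deposited normalized counts, a scaled signal: 0.000814% of values above 0 were whole within 1e-06, so no count model was used. All 8 columns were used. The worth of 1 read was the median of the lowest band of values (under 1.5 times the first percentile).

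CPM were computed from column totals. The tissues were compared by limma 3.58.1 (R 4.3.3; trended prior variance, pseudocount 1, Benjamini-Hochberg threshold 0.05) on models with 10 or more normalized counts in 4 or more libraries (3 when a library was left out), after a check on simulated data. Other values came from Python 3.11.15, numpy 2.4.6 and pandas 2.3.3. Named models are the 10 most abundant members, the 3 widest and 3 steadiest in leaf, the 3 on each side of a limit, and the 10 neighbours with the largest called differences; others were named after their values were seen. The members, tiers and rules were chosen with earlier results of these data known.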

Additional observations from a re-analysis of the deposited data

Results flagged for a closer look

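In 6 of the 54 members, 1 leaf library stood apart from the other libraries, with a gap to the nearest of them above Dixon's 95% limit for 4 values (the gap as a share of the whole range). Pis03108.t1 was at 40 CPM in leaf library 4 and at 12.8 to 17.1 CPM in the others (gap 0.843 of the range). Pis05112.t1 was at 21.2 CPM in library 4 and at 16.6 to 17.4 CPM in the others (0.839), and Pis01322.t1 at 5.35 CPM in library 4 and at 1.76 to 2.18 CPM in the others (0.884). Pis19154.t1 was at 3.90 CPM in library 1 and at 1.15 to 1.3 CPM in the others (0.946), and Pis03797.t1 at 1.76 CPM in library 1 and at 1.17 to 1.25 CPM in the others (0.858). Pis14804.t1 was at 6.04 CPM in library 3 and at 2.87 to 3.07 CPM in the others (0.939). In each the separate library was the highest one. The demand for 1 CPM in every leaf library leaves weak members little room for a low one. The gaps were also taken on CPM without logs, so nothing is read from that direction. With 55 groups of values examined, chance flags about 1 in 20.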

How the results depend on the processing

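Of 79 recomputed values, 68 stayed close to the main value and 11 moved. A count passed as close within 1.5 times. Some of the 68 say little. Summing values per model number could change nothing, since each number occurs once. A root limit of 0.1 CPM lies below the worth of 1 read in root (0.167 to 0.171 CPM). Counts at 2 to 5 numbers from a member are of other models, out of other totals. The size of the group depended on its limits. It held 28 with 5 CPM in every leaf library, 107 with 1 normalized count as the leaf minimum, 110 with up to 0.5 CPM in root and 84 with 0 in at least 3 of 4 root libraries. Leaving out 1 library gave 54 to 68 models, the most without root library 4, and the 54 were among them each time because fewer demands were made. The summed share was 0.133% to 0.145% with 1 leaf library left out and 0.113% without Pis15720.t1. The median level was 8.0 CPM from medians over the leaf libraries. With column totals 16 neighbours favoured leaf and 25 root, and over all tested models 1839 favoured leaf in place of 3334. At 2 and at 5 numbers from a member, 18 and 19 models were higher in root in place of 10; these distances, and the neighbours outside runs, were chosen after seeing the data. With 1 library left out the neighbours gave 23 to 26 calls for leaf and 8 to 11 for root, and all tested models gave 2965 to 3424 for leaf. The median SD was 0.289 to 0.410 with 1 leaf library left out and 0.456 with a pseudocount of 0.1. A replicate block on the column numbers gave 25 and 9 neighbours and 3100 models; equal numbers need not mark 1 flask, the deviations of same-numbered libraries correlated between -0.0196 and 0.0279, and 0 libraries correlated best with their own number. Count-model tests were not run, because reads were not recovered, nor was the comparison with other models of the same number, of which there were 0. Levels near 1 CPM rest on few reads, so single reads decide membership there.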
